A study of Mus musculus with 10 samples.

Results

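Lines of the mouse mammary carcinoma clone 4T1-T in which either Serpine2 or Slpi was targeted by an shRNA were set against the line with the control hairpin, and genes were sought that lay on the same side of the control in every knockdown library. The 8 knockdown libraries came from 4 lines (shSerpine2-1, shSerpine2-2, shSlpi-1 and shSlpi-2, with libraries A and B of each), and the 2 control libraries came from the shRenilla line. Of 12299 genes with a mean normalized read count of at least 10, 1326 (10.8%) were above both shRenilla libraries in all 8 knockdown libraries and 1464 (11.9%) were below both, together 2790 genes or 22.7%. Over all 22241 genes with at least 1 read the numbers were 1409 and 1543, so most genes that met the rule also passed the filter on low counts.

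4T1 is a mouse mammary cancer line that spreads to distant organs, and 4T1-T was grown out from 1 of its cells, so every group shares that clonal origin. All 5 groups were infected with a short hairpin RNA, which directs cleavage or silencing of a matching transcript. In shRenilla the hairpin matches luciferase of the sea pansy, which these cells do not naturally carry. The other groups carried hairpin 1 or 2 against Serpine2, or hairpin 1 or 2 against Slpi. Each hairpin is represented by 1 line, and the labels are silent on whether libraries A and B were separate cultures. The p-values therefore reflect variation between 2 libraries of a line, and that variation may be purely technical. Because all 4 lines were compared with the same control line, a feature of the shRenilla line and a change shared by the knockdown lines cannot be told apart.

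Serpine2 and Slpi are secreted inhibitors of serine proteases. Serpine2, or protease nexin-1, traps thrombin and plasminogen activators, and Slpi blocks elastase-like enzymes. Mammary tumour cells can hold luminal, basal and mesenchymal features at once, and keratins, cadherin junctions and tight junction proteins are used to place them along that range. Sterol and fatty acid synthesis is run by the SREBP transcription factors, and amino acid import, synthesis and tRNA charging by Atf4. These pathways supply membrane and protein for growth.

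The libraries held 15877431 to 24026620 reads. The share of table entries at 0 was 31.7% and 32.3% in shRenilla and ran from 13.7% to 34.5% in the knockdown libraries. In the shSlpi-2 libraries 6.88% and 6.91% of reads were given to Rn45s, the ribosomal RNA precursor, against 0.881% to 1.96% in the other 8 libraries, and these libraries also differed most from each other. Epithelial genes were abundant, with Epcam at 1300 to 2159 and Cdh1 at 9155 to 12918 normalized reads. Leukocyte, endothelial and fibroblast lists had 3, 5 and 3 members above the filter. The defining markers Ptprc, Pecam1, Col1a1 and Dcn had at most 31.2 normalized reads in any library, and Lyz2, Lum and Thy1 were at 0 in both shRenilla libraries. Summed leukocyte list levels were 568 to 577 in shRenilla and 530 to 848 in the knockdown libraries, and endothelial list levels were 1697 to 1772 and 1547 to 1761. The summed fibroblast list was 953 to 978 in shRenilla and 640 to 835 in the knockdown libraries, most of it from Pdgfra, which the carcinoma clone expressed at 436 to 896 normalized reads. In bulk RNA, fewer cells of a type and less RNA per cell cannot be told apart.

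The shared differences were mostly small. Same-side genes that were higher had a median difference of 0.27 on the log2 scale, or 1.21-fold, with a median of 0.15 in each gene's weakest line and 0.40 in its strongest. Those that were lower had a median of -0.30, or 1.23-fold, with -0.15 in the weakest and -0.45 in the strongest line. A difference of at least 0.5 in all 4 lines was met by 40 higher and 83 lower genes, and a difference of at least 1 by 3 and 14. The same-side rule used these values, so they describe the members. The rule asks less with 1 control library, and 4603 genes met it without shRenilla library A and 4093 without library B. Just inside the rule were Nop14, whose lowest knockdown library had 2468 normalized reads against 2467 in the higher shRenilla library, and Bmf, whose highest knockdown library equalled the lower shRenilla library to the printed digits (60.6). Just outside were Trim25, with 3846 in its lowest knockdown library against 3847 in shRenilla, and Ube2v2, with 763.9 against 763.8.

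The limma fit over all 10 libraries, which takes its spread from libraries A and B within each line, called 1844 genes as higher (15.0% of 12299) and 1980 as lower (16.1%) in the mean of the 4 lines. Of the same-side members 1127 of 1326 had risen and 1262 of 1464 had fallen by that test, with 1435 called genes not on the same side in all libraries. These calls rest heavily on the control. Without shRenilla library A 2163 genes were called, and without library B 1596. When the spread was instead taken over all 8 knockdown libraries, limma called 201 genes up and 199 down (2801 with an unadjusted p under 0.05). All 400 lay on the same side. The rule and both fits use the same values, so these overlaps with the same-side members are no independent support. With line means as units, limma called 0 genes (1007 with an unadjusted p under 0.05). Below, "rose" and "fell" refer to the fit with the spread within lines. Adjusted p-values "with the spread over lines" are from the fit with the spread over all 8 knockdown libraries. They stand beside the leading genes and wherever they end a call. That fit counts libraries A and B of a line as separate units, so these p-values are not at the level of lines. With line means as units, the limma adjusted p was 0.60 for each of Krt14, Krt7, Ace, Dmp1, Spp1 and Hmgcs1. Of 112 genes with values taken up for description and called by the first fit, 64 lost the call with the spread over lines and all 112 with line means.

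Krt14, a keratin of basal epithelium, had the largest rise in its weakest line among risen members with a mean of at least 50. It had 115 and 120 normalized reads in shRenilla. The Serpine2 lines had 216, 219, 244 and 266, and the Slpi lines had 347, 284, 544 and 471. By the rule all 8 knockdown libraries were above the control, and the shSlpi-2 libraries were the highest of them. The mean difference was 1.38 on the log2 scale (SE 0.09, limma adjusted p = 3.84e-08), the ratio of the arithmetic means was 2.76, and the adjusted p was 0.0219 with the spread over lines. Its close relatives share sequence with it, so reads may be split among keratin genes. Krt14 lies at chr11:100203162-100207510 (mm10).

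Other epithelial genes were higher with it. Krt7, a keratin of simple epithelium, had 1991 and 1831 normalized reads in shRenilla and 2978 to 4020 in the 8 knockdown libraries, with a median of 3138 and the highest 2 in shSlpi-2. Its difference was 0.79 (SE 0.04, limma adjusted p = 3.86e-09, and 0.0071 with the spread over lines). Fgfbp1, which carries fibroblast growth factors out of the matrix, had 1425 and 1436 in shRenilla and 2080 to 2930 in the knockdown libraries, a difference of 0.82 (SE 0.04, limma adjusted p = 1.26e-09, and 0.0071 with the spread over lines). The rule required every knockdown library to lie above the shRenilla pair. For both genes the gap was more than the distance within that pair.

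**Figure D1:**
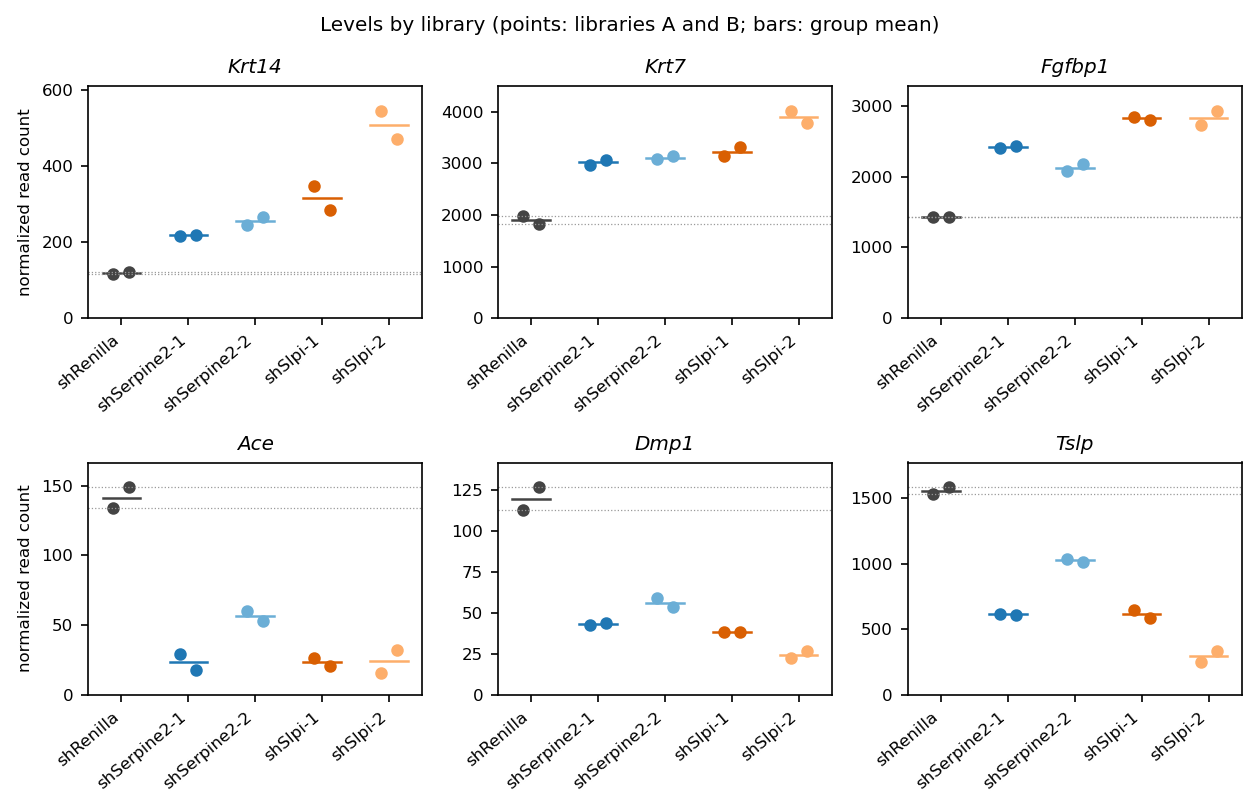
Normalized read counts (linear axis from 0) of 6 genes in libraries A and B of the 5 groups, with a bar at each group mean and dotted lines at the 2 shRenilla libraries. Krt14, Krt7 and Fgfbp1 lie above the control in all 8 knockdown libraries, and Ace, Dmp1 and Tslp lie below it.

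Of 43 measured genes of epithelial junctions and identity, 21 were above the control in every library and 1 was below it (48.8% and 2.33%). By the test 25 rose, 2 fell and 16 did not pass, and with the spread over lines 8 rose and 1 fell. The list's median difference was 0.34, against -0.0015 over all tested genes. Cdh1, which encodes E-cadherin, had 9520 and 9155 normalized reads in shRenilla and 11135 to 12918 in the knockdown libraries (difference 0.36, SE 0.03, limma adjusted p = 1.90e-06, and 0.0149 with the spread over lines). Epcam, an adhesion molecule of epithelium, rose by 0.44 (SE 0.04, limma adjusted p = 2.12e-06, and 0.0582 with the spread over lines), from 1300 and 1313 to 1470 at the lowest and 2159 at the highest. Cgn, the tight junction protein cingulin, rose by 0.64 (SE 0.06), and Esrp1, a splicing factor of the epithelial programme, by 0.64 (SE 0.07). The desmosome genes Dsp, Dsc2 and Dsg2 and the tight junction genes Ocln and Marveld2 were among the other same-side members, and the transcription factor gene Klf5 was the 1 on the lower side. The list's medians were 0.18, 0.22, 0.31 and 0.55 in shSerpine2-1, shSerpine2-2, shSlpi-1 and shSlpi-2.

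Of 8 measured keratin genes 4 were same-side members, all upward, and 6 rose, or 3 with the spread over lines. The members were Krt14, Krt7, Krt80 (difference 0.56, SE 0.08) and Krt8, the luminal keratin, at 0.25 (SE 0.04, limma adjusted p = 3.87e-04, and 0.154 with the spread over lines), or 0.16 with values centred by transcript GC. Krt18, the partner of Krt8, was not a member, since its shSerpine2-1 libraries had 5187 and 5403 normalized reads against 5494 and 5548 in shRenilla.

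Mesenchymal genes did not move as 1 block. Of 21 measured, 0 were above the control in every library and 6 were below it (Zeb2, Col6a1, Col6a2, Pdgfra, Fgfr1 and Nt5e). By the test 2 rose, 6 fell and 13 did not pass, with a median of -0.03, and with the spread over lines 0 rose and 1 fell. Zeb2, a repressor of Cdh1, had 4760 and 5225 normalized reads in shRenilla and 3388 to 4722 in the knockdown libraries (difference -0.33, SE 0.05, limma adjusted p = 6.07e-05, and 0.079 with the spread over lines). Its highest knockdown library lay close under the lower control, and with values centred by transcript GC its difference was -0.19. Nt5e, the surface enzyme CD73, had 6185 and 6124 in shRenilla and 4015 to 5422 in the knockdown libraries (difference -0.37, SE 0.04, limma adjusted p = 6.26e-06, and 0.0482 with the spread over lines).

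Genes of lipid synthesis held the largest same-side share of the 26 lists. Of 41 measured, 25 were above the control in all 8 libraries (61.0%) and 0 below. By the test 31 rose, 0 fell and 10 did not pass, and 10 rose with the spread over lines. The median was 0.24, with 0.15, 0.24, 0.20 and 0.34 in shSerpine2-1, shSerpine2-2, shSlpi-1 and shSlpi-2. The same-side members ran through the sterol route, from Hmgcs1 at its start through Idi1, Sqle and Lss to Cyp51. They also took in fatty acid synthesis (Acly, Fasn, Elovl6), desaturation (Scd1, Scd2, Fads1, Fads2) and the regulator Srebf2.

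Hmgcs1, which makes the precursor of mevalonate, had 2097 and 2161 normalized reads in shRenilla. The knockdown libraries had 2633 and 2811 (shSerpine2-1), 2705 and 2627 (shSerpine2-2), 2801 and 2909 (shSlpi-1), and 2912 and 2827 (shSlpi-2). The 4 lines lay close together, above the control, with a difference of 0.38 (SE 0.04, limma adjusted p = 5.46e-06, and 0.0112 with the spread over lines). Their difference from each other did not pass the limma F test (adjusted p = 0.23). Cyp51, a demethylase of lanosterol, rose by 0.40 (SE 0.04) and Scd2, a stearoyl-CoA desaturase, by 0.41 (SE 0.04, limma adjusted p = 0.0815 with the spread over lines), and in both the shSlpi-2 libraries were the highest (6814 and 6216 for Cyp51, against 4274 and 4229 in shRenilla).

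Atf4 targets for amino acid supply were higher too. Of 45 measured genes of amino acid supply and stress, 17 were above the control in every library (37.8%) and 0 below. By the test 26 rose, 0 fell and 19 did not pass, and 7 rose with the spread over lines. The 17 were transporters (Slc7a1, Slc7a5, Slc7a11, Slc3a2, Slc1a4, Slc6a9), enzymes of synthesis (Asns, Psph, Mthfd2, Gpt2) and tRNA synthetases (Sars, Aars, Nars, Wars, Cars, Lars, Tars). The list's median was highest in shSerpine2-2, with 0.22, 0.37, 0.14 and 0.22 in shSerpine2-1, shSerpine2-2, shSlpi-1 and shSlpi-2. Slc7a5, which imports leucine and other large amino acids, had 3262 and 3167 normalized reads in shRenilla and 3813 to 5150 in the knockdown libraries (difference 0.50, SE 0.04, limma adjusted p = 7.95e-07, and 0.0136 with the spread over lines). Aars, the alanyl-tRNA synthetase, rose by 0.48 (SE 0.05, limma adjusted p = 2.74e-06). Slc7a11, the cystine importer, rose by 0.47 (SE 0.05), from 577 and 596 to 1165 and 1087 in shSerpine2-2 and to 643 and 628 in shSlpi-2, its adjusted p was 0.192 with the spread over lines, and its difference was 0.31 without both shSerpine2-2 libraries.

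Promoters of same-side members of these 2 lists, as the 250 bases before the start site in RefSeq on GRCm38.p6, were searched on both strands for a sterol regulatory element (TCACNCCAC) and for a core of the amino acid response element (TGATGNAAN). Promoters were at hand for 17 of the 25 lipid members and 12 of the 17 Atf4 members, and the others were not searched. The sterol element was found in 1 of 18 promoters of 17 lipid genes, beside 1.06% of all 32619 promoters and 1.07% of those of all same-side higher genes. The amino acid core was found in 4 of 15 promoters of 12 genes (26.7%), beside 3.33% of all promoters and 1.89% of those of tested genes. It was in 9 of 40 promoters (22.5%) of all measured members of the Atf4 list, same-side or not, and in 2.07% of those of all same-side higher genes. Printed are the sterol match and the first 3 amino acid matches by p, which show where these letters stand relative to the start site. Capitals mark the match, on either strand, and each sequence is 5′ to 3′ on the gene's strand. The promoters are at chr13:119690101-119690350 (Hmgcs1, plus strand), chr8:111033592-111033841 (Aars, plus), chr6:7693210-7693459 (Asns, minus) and chr3:50443614-50443863 (Slc7a11, minus, with 2 matches).
Hmgcs1: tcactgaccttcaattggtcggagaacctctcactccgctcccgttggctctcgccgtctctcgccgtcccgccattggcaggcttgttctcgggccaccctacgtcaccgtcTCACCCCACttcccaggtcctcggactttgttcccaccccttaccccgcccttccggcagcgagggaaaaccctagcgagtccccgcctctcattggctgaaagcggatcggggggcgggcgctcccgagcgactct
Aars: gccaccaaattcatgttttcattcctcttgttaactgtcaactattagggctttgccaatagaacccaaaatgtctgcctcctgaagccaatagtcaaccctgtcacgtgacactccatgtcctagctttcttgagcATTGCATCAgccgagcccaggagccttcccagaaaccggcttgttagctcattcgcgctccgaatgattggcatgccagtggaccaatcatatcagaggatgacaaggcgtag
Asns: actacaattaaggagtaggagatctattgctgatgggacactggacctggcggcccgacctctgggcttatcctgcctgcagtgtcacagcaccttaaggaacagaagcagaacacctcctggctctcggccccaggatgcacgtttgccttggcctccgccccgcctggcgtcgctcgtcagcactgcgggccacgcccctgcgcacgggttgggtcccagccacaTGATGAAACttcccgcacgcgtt
Slc7a11: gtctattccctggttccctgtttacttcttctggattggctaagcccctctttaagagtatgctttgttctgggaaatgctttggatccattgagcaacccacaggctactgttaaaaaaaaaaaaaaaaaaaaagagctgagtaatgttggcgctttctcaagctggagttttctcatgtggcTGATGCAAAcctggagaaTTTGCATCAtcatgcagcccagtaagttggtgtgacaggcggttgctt
The matches begin 137, 113, 23 and 48 bases from the start site in Hmgcs1, Aars, Asns and, for the nearer of its pair, Slc7a11. A match is a description of the letters and not a measured binding site, and searched genes without a match lack only these letters in this window.

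Among the 12 fallers described here, Ace had the largest mean fall after Serpine2. It encodes angiotensin-converting enzyme, a membrane peptidase. It had 134 and 149 normalized reads in shRenilla, 29.0 and 17.4 in shSerpine2-1, 59.7 and 52.8 in shSerpine2-2, 26.2 and 20.8 in shSlpi-1, and 15.5 and 32.2 in shSlpi-2. By the rule all 8 knockdown libraries were under the control, and the shSerpine2-2 libraries were the highest of them. The difference was -2.26 (SE 0.24, limma adjusted p = 5.46e-06, and 0.014 with the spread over lines), and the arithmetic mean of the knockdown libraries was 4.46-fold lower. Ace lies at chr11:105967948-105989964. Of 17 measured genes of the renin-angiotensin and vasoactive list, 4 were above the control in every library and 2 below. These were 23.5% and 11.8%, against 10.8% and 11.9% of all tested genes. Edn1, the peptide endothelin-1, rose by 0.80 (SE 0.17, limma adjusted p = 0.00193, and 0.0904 with the spread over lines). Its call ended without shRenilla library A (0.59, limma adjusted p = 0.0721).

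Bone and mineral genes were lower in all 4 lines. Of 15 measured, 8 were below the control in every library (53.3%) and 0 above. By the test 0 rose, 9 fell and 6 did not pass, and 5 fell with the spread over lines. The median was -0.57, with -0.42, -0.44, -0.48 and -0.75 in shSerpine2-1, shSerpine2-2, shSlpi-1 and shSlpi-2. The 8 were Dmp1, Spp1, Enpp2, Ank, Runx2, Bmp7, Phex and Pthlh. They include a skeletal transcription factor (Runx2), a morphogen (Bmp7), a parathyroid hormone relative (Pthlh) and genes of phosphate and pyrophosphate handling (Phex, Ank).

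Dmp1, an acidic phosphoprotein of bone and dentin, had 113 and 127 normalized reads in shRenilla. It had 42.3 and 44.1 in shSerpine2-1, 58.8 and 53.6 in shSerpine2-2, 38.3 and 38.5 in shSlpi-1, and 22.2 and 26.5 in shSlpi-2. The difference was -1.60 (SE 0.16, limma adjusted p = 2.76e-06, and 0.0149 with the spread over lines). Spp1, or osteopontin, is a phosphoprotein of the same family and lies on the same chromosome, 5. It had 23343 and 25627 in shRenilla and 7154 to 15891 in the knockdown libraries, a difference of -1.14 (SE 0.04, limma adjusted p = 9.60e-12, and 0.0224 with the spread over lines). In both genes shSlpi-2 was the lowest line and shSerpine2-2 the highest of the 4.

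Tslp, a cytokine that epithelial cells send to dendritic cells, had 1532 and 1582 normalized reads in shRenilla. It had 618 and 610 in shSerpine2-1, 1039 and 1011 in shSerpine2-2, 647 and 583 in shSlpi-1, and 252 and 334 in shSlpi-2. The difference was -1.43 (SE 0.08, limma adjusted p = 3.86e-09), and its adjusted p was 0.0582 with the spread over lines. The lines differed from each other (limma F adjusted p = 2.33e-08). Il11, a cytokine of the interleukin-6 group, fell by 1.18 on the log2 scale (SE 0.20) and Lcn2, a lipocalin that binds bacterial iron carriers, by 2.45 (SE 0.37), from 56.9 and 54.0 normalized reads to 40.6 at the highest and 0.967 at the lowest. That lowest value is under the 3 reads that a count of 0 allows. Both had adjusted p-values above 0.1 with the spread over lines (0.107 and 0.106). Of 30 measured cytokine and chemokine genes, 2 were above the control in every library and 5 below (6.67% and 16.7%). Over all tested genes the shares were 10.8% and 11.9%.

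Among ERK feedback and immediate early genes, more lay below the control than above it. Of 43 measured, 5 were above the control in every library and 11 below (11.6% and 25.6%). Of all tested genes 10.8% were above and 11.9% below, so the share above was near that of all genes. By the test 8 rose, 16 fell and 19 did not pass, and 4 fell with the spread over lines. Dusp6, a phosphatase that switches off ERK, had 1720 and 1629 normalized reads in shRenilla and 992 to 1395 in the knockdown libraries (difference -0.61, SE 0.05, limma adjusted p = 9.07e-07, and 0.0148 with the spread over lines). Etv1, a transcription factor of the same feedback group, fell by 0.48 on the log2 scale (SE 0.05), and Tgfa, a ligand of the epidermal growth factor receptor, by 0.71 (SE 0.04, limma adjusted p = 0.0685 with the spread over lines). Among the 20 measured receptor kinases 2 were above the control and 5 below in every library (10% and 25%). Mertk, one of these receptor kinases, had 101.1 and 85.9 normalized reads in shRenilla and 23.7 to 58.3 in the knockdown libraries (difference -1.20, SE 0.20, limma adjusted p = 2.34e-04, and 0.0269 with the spread over lines).

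Serpine2 itself met the rule. It had 3256 and 3145 normalized reads in shRenilla, 128 and 139 in shSerpine2-1 and 489 and 514 in shSerpine2-2. In the lines with hairpins against Slpi it had 1342 and 1331 (shSlpi-1) and 1553 and 1731 (shSlpi-2). Both Slpi lines were thus under the control and above both Serpine2 lines, and the mean difference over 4 lines was -2.37 (SE 0.06, limma adjusted p = 4.70e-14, and 0.12 with the spread over lines). Slpi did not meet the rule. It had 1189 and 1313 in shRenilla, 326 and 414 in shSerpine2-1, 1111 and 1218 in shSerpine2-2, 145 and 147 in shSlpi-1, and 60.9 and 75.8 in shSlpi-2, so that shSerpine2-2 library B lay between the controls. Of 20 measured protease inhibitors 5 were above the control in every library and 3 below (25% and 15%). These stand beside 10.8% and 11.9% of all tested genes. Serpinb5, or maspin, rose by 0.75 (SE 0.10) and Reck, an inhibitor of matrix metalloproteinases, fell by 0.76 on the log2 scale (SE 0.09, limma adjusted p = 8.57e-06, and 0.0588 with the spread over lines).

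The 12 genes that rose and the 12 that fell most in their weakest line hold further members. Mal, a proteolipid of apical membrane traffic, had 51.6 and 40.8 normalized reads in shRenilla and 77.8 to 112 in the knockdown libraries. Igsf3, an immunoglobulin superfamily protein, was nearly level over the lines, at 0.58, 0.54, 0.56 and 0.53 (mean difference 0.55, SE 0.07, limma adjusted p = 1.37e-05, and 0.0071 with the spread over lines). Mcat, of mitochondrial fatty acid synthesis, rose by 0.66 (SE 0.12, limma adjusted p = 5.03e-04, and 0.0149 with the spread over lines). Rrp9 of the U3 particle, Ccdc124 and Frmd4b were also among the risers.

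Among the fallers, Gpr123, an adhesion G protein-coupled receptor, was level over the lines, at -1.05, -0.98, -0.90 and -1.19. Tnfrsf19, the receptor Troy, had 114 and 130 normalized reads in shRenilla and 50.2 to 78.1 in the knockdown libraries (difference -0.95, SE 0.15, limma adjusted p = 2.04e-04, and 0.0141 with the spread over lines). Enpp2, or autotaxin, which makes lysophosphatidic acid, fell by 1.17 on the log2 scale (SE 0.18), with shSerpine2-1 the lowest line. Abcc3, an export pump, fell by 0.93 (SE 0.12) and Gbp9, an interferon-inducible GTPase, by 1.04 (SE 0.13). Fam114a1, Man1c1 and Aox1 completed the fallers. The call of Aox1 was lost with the spread over lines (limma adjusted p = 0.0599).

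**Figure D2:**
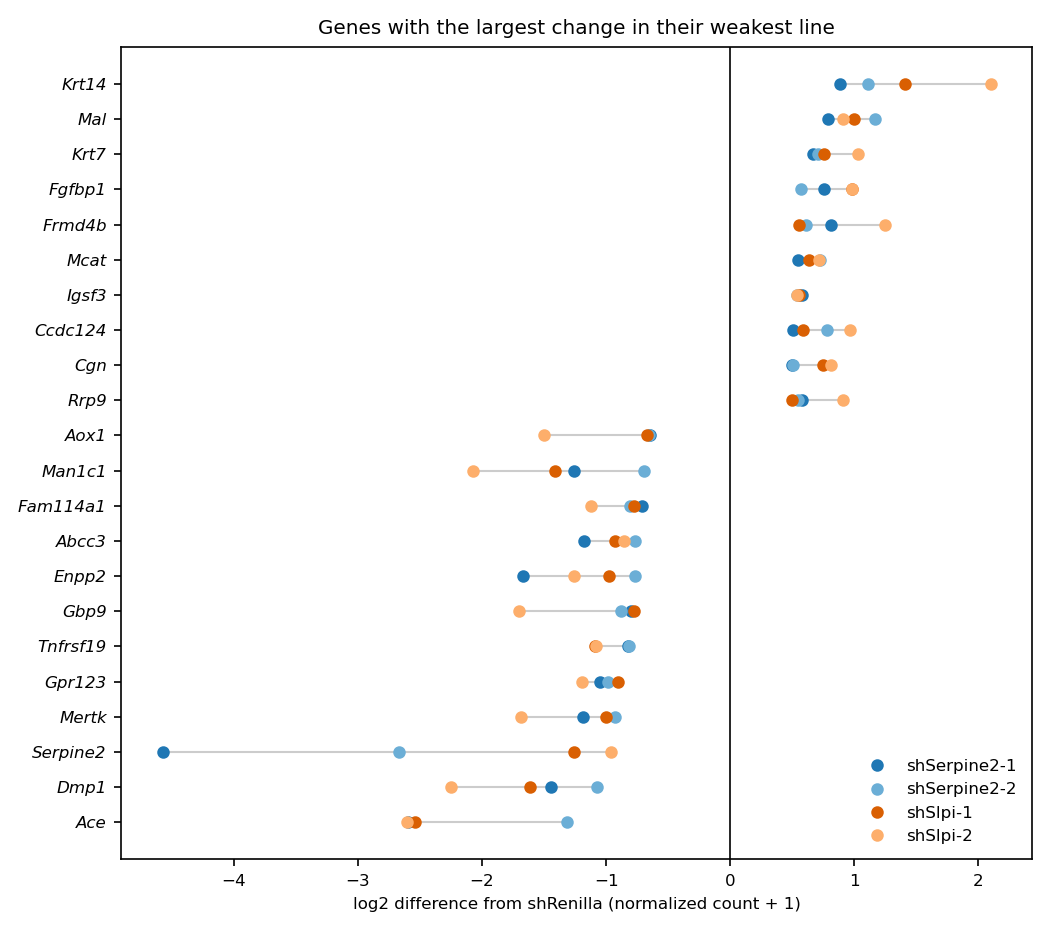
Difference of each knockdown line's mean from shRenilla, on the log2(normalized count + 1) axis, for 10 of the 12 genes that rose and all 12 that fell most in their weakest line. Each point is a line and the grey bar joins the weakest to the strongest. By the rule all points of a gene lie on 1 side of 0. The spread of Igsf3, from 0.53 to 0.58, is far narrower than that of Krt14, from 0.89 to 2.10.

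Sharing a direction did not make the lines alike. The limma F test among the 4 knockdown lines, which does not use the control values as a contrast, called 5010 genes (40.7% of those tested), and it called 548 of the 1326 higher members (41.3%) and 781 of the 1464 lower ones (53.3%). The strongest line was shSlpi-2 for 759 of the higher and 957 of the lower members. The shSlpi-2 libraries also had the largest share of Rn45s reads (6.88% and 6.91%), and its part in the result was not tested. Among members with the widest spread over lines, Itgb6, an epithelial integrin chain, rose by 0.34 to 1.44 and Moxd1, a monooxygenase-like protein, by 0.25 to 1.32, each furthest in shSlpi-2. Without both shSlpi-2 libraries the mean difference of Moxd1 was 0.35, against 0.59 with them. Egr1, an immediate early transcription factor, had 902 and 910 normalized reads in shRenilla, 861 and 807 in shSerpine2-1 and 252 and 281 in shSlpi-2. Fgfr1, a fibroblast growth factor receptor, had 327 and 355 in shRenilla, 321 and 295 in shSerpine2-2 and 104 and 115 in shSlpi-2. Both lay below the control in all 8 libraries but close to it in 1 line. The mean difference of Egr1 was -0.82, and -0.50 without both shSlpi-2 libraries. With the spread over lines the limma calls of these 4 genes were lost (adjusted p = 0.098 for Itgb6, 0.198 for Moxd1, 0.20 for Egr1 and 0.11 for Fgfr1).

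Between the targets, 2157 genes differed in the limma contrast of Serpine2 lines minus Slpi lines (17.5%). Of the members, 223 of the higher and 405 of the lower were called. The mean of the Slpi lines lay further from the control in 190 and 395 of these, and that of the Serpine2 lines in 33 and 10. The line furthest from the control was shSlpi-2 for most members. Without both shSlpi-2 libraries 2116 genes differed between targets, of which only 922 were among the 2157 in the same direction. Without both shSerpine2-1 libraries 1088 genes differed, and without both shSlpi-1 libraries 3514. With the spread over all knockdown libraries 11 differed.

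In the ribosomal, replication, Nrf2 and p53 lists more same-side members lay above the control than below it. Over all tested genes the shares were 10.8% above and 11.9% below. Of 77 ribosomal protein genes 14 were above the control in every library and 1 below (18.2% and 1.30%), with Rpl7 at 0.42 (SE 0.05) and Rplp0 at 0.39 (SE 0.05). Pseudogenes can take part of their reads. The list's median was 0.01 in shSerpine2-1 and 0.37 in shSlpi-2. Of 57 genes of DNA replication and mitosis 12 were above and 2 below (21.1% and 3.51%). The mitotic gene Cdca8 was at 0.42 (SE 0.04) and the cell cycle activator E2f1 at 0.54 (SE 0.07). Of 34 Nrf2 genes 8 were above and 2 below (23.5% and 5.88%), and of 25 p53 targets 6 and 1 (24% and 4%). By the test 30, 20, 12 and 8 genes rose and 1, 5, 8 and 4 fell in the ribosomal, replication, Nrf2 and p53 lists. With the spread over lines 2, 3, 0 and 2 rose and 0, 0, 1 and 0 fell. Of 51 interferon-stimulated genes 2 were above and 8 below (3.92% and 15.7%). The 2 were the class I genes H2-K1 and H2-D1, whose reads are hard to separate, while B2m, the light chain of class I, was among the 8. Oasl2 fell by 0.56 on the log2 scale (SE 0.08, limma adjusted p = 6.66e-05, and 0.0149 with the spread over lines). Of 39 proteases 9 were above and 6 below (23.1% and 15.4%). Adamts1 was at 0.59 (SE 0.05) and Mmp3, stromelysin-1, at -0.92 (SE 0.06, limma adjusted p = 0.0926 with the spread over lines). For Mmp3, shSerpine2-2 library A had 785 normalized reads, close to the lower control (787).

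None of the 56 measured histone genes met the rule in either direction, although 15 fell in the mean of the 4 lines (0 with the spread over lines). Their median was -0.30, -0.38 and -0.44 in shSerpine2-1, shSerpine2-2 and shSlpi-1 and 0.04 in shSlpi-2. Without both shSlpi-2 libraries 41 of the 56 lay below the control in every remaining knockdown library. Histone genes have close copies, among which reads may be split. The angiogenic and contractile lists had 5 and 2 of 31 (16.1% and 6.45%) and 3 and 2 of 17 (17.6% and 11.8%) above and below. The basement membrane and chaperone lists had 4 and 3 of 25 (16% and 12%) and 5 and 3 of 29 (17.2% and 10.3%). The small RNA list had 5 and 2 of 17 (29.4% and 11.8%). Of all tested genes 10.8% lay above and 11.9% below. Thbs1, the matricellular thrombospondin, rose by 0.47 (SE 0.04, limma adjusted p = 1.62e-06, and 0.0135 with the spread over lines), and Ero1l, an oxidase of the endoplasmic reticulum, fell by 0.41 on the log2 scale (SE 0.04).

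**Figure D3:**
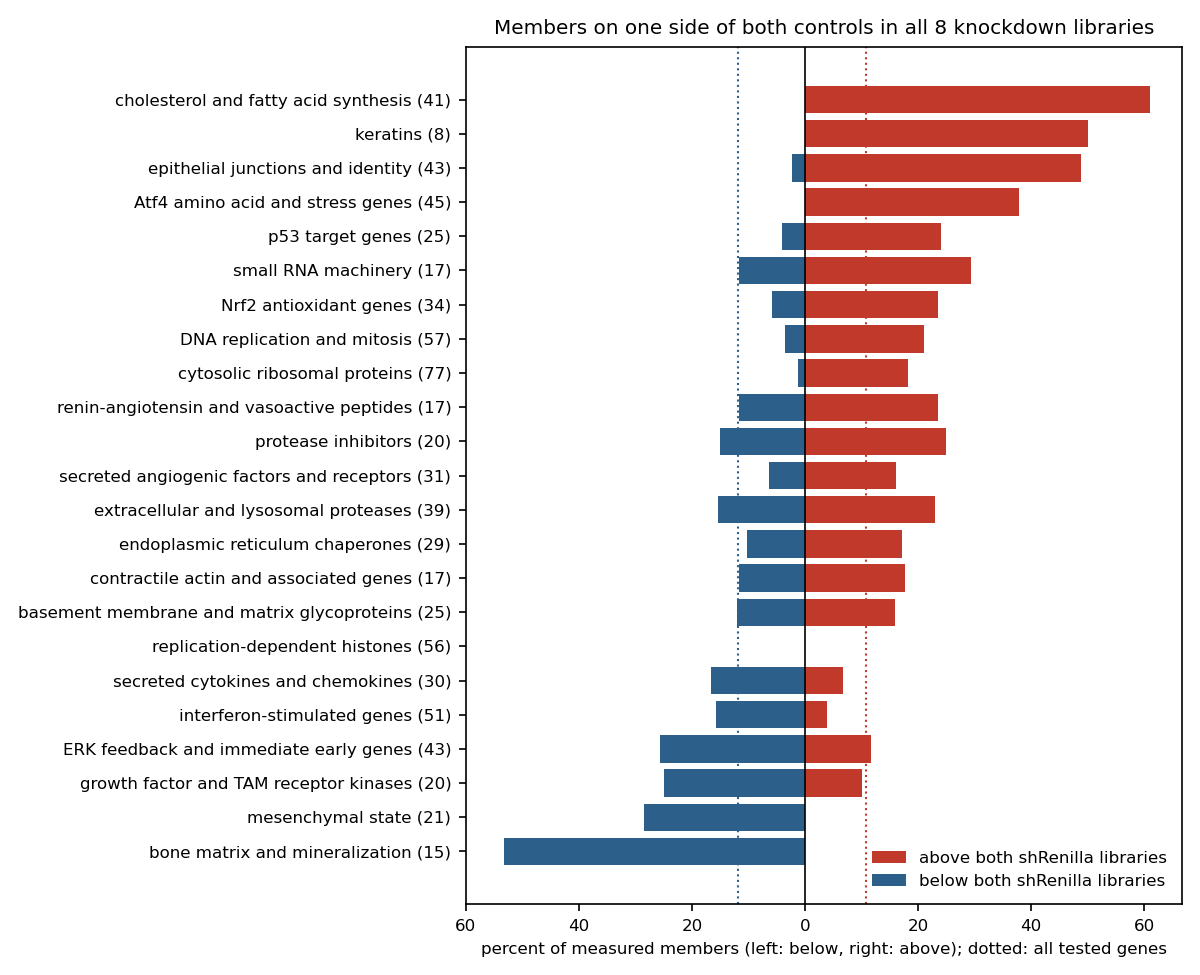
Percent of each list's measured members (their number in brackets) above both shRenilla libraries in all 8 knockdown libraries, drawn to the right, and below both, drawn to the left. Dotted lines mark the shares over all tested genes, 10.8% and 11.9%. Lipid synthesis has 61.0% above and bone genes have 53.3% below.

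Membership varied with transcript composition. Members that were higher had a median transcript GC content of 52.0%, those that were lower 44.8%, and all tested genes 49.5%. Genes were split by GC content into 5 classes of equal size. In the class with the least GC 3.45% were higher and 25.6% lower, and in the class with the most GC 14.5% and 3.90%. The lower members also had longer transcripts (median 4170 bases, against 3014.5 for the higher members and 3357 for all tested genes). In each library's deviation from the mean of all libraries, the median of the highest GC class minus that of the lowest was -0.14 and -0.19 in shRenilla and -0.10 to 0.27 in the knockdown libraries, so the 2 control libraries were the lowest of the 10 on this measure.

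Centring every library within 20 bins of GC content left 2608 genes on the same side (1300 above and 1308 below), of which 2065 were among the 2790. How far the counts above and below changed varied by list. Lipid synthesis had 26 above and 0 below (25 and 0 before centring) and epithelial genes 21 and 4 (21 and 1 before). Keratins stayed at 4 and 0 and bone genes at 0 and 8, and Atf4 genes had 14 and 0 (17 and 0 before). ERK genes had 6 and 18 (5 and 11 before), mesenchymal genes 0 and 7 (0 and 6 before), and histones 0 and 10 (0 and 0 before). After centring, the differences of Krt14, Ace, Dmp1 and Tslp were 1.29, -2.35, -1.62 and -1.29. Of the genes described here as members with their values, Nop14, Zeb2 and Mmp3 were no longer on the same side in all libraries. Slpi, which had not met the rule before centring, lay below the control in all knockdown libraries after it. What gave the control libraries this GC profile was not tested.

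**Figure D4:**
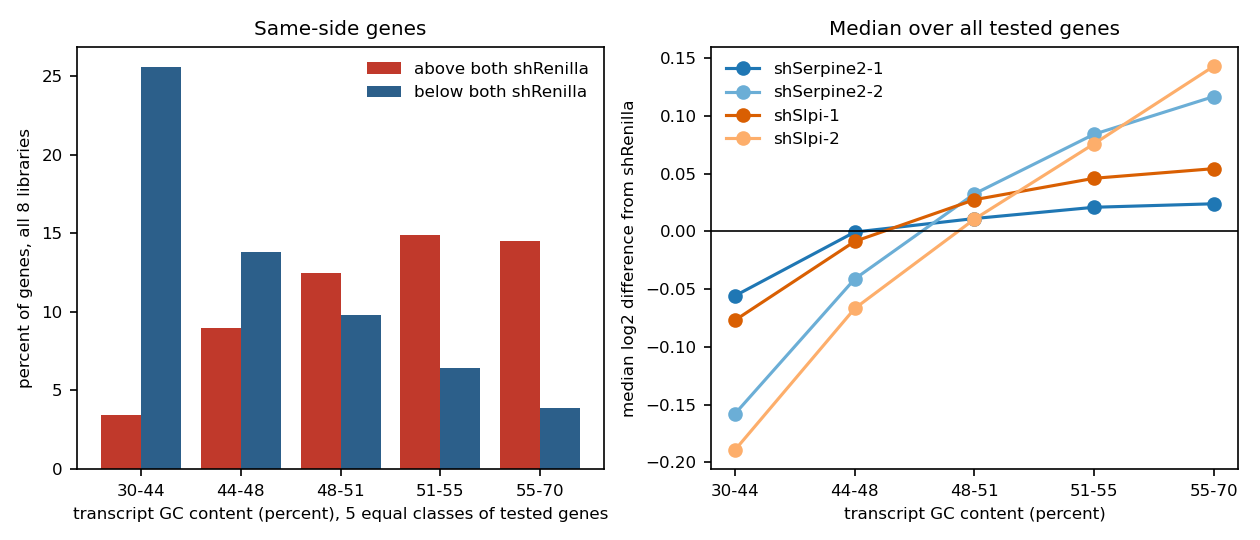
Left, percent of tested genes above or below both shRenilla libraries in all 8 knockdown libraries, by 5 equal classes of transcript GC content. Right, median log2 difference from shRenilla of all tested genes in the same classes for each line. The share below falls from 25.6% to 3.90% with rising GC, and in all 4 lines the median is below 0 in the lowest class and above 0 in the highest.

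Members were also spread unevenly over chromosomes. On chromosome 15, 97 of 487 tested genes were above the control in every library and 36 below (19.9% and 7.39%), and its median difference was 0.06, 0.09, 0.07 and 0.07 in shSerpine2-1, shSerpine2-2, shSlpi-1 and shSlpi-2, against a median over all tested genes between -0.01 and 0.00 in each line. Krt7, Krt8, Krt80, Mcat and Rpl8 are among its higher members. On chromosome 11 the shares were 14.7% and 8.09%, on chromosome 13 6.40% and 14.5%, and on the X chromosome 7.38% and 15.8%. After GC centring they were 17.0% and 7.80% on chromosome 15 and 9.16% and 9.92% on the X chromosome.

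**Figure D5:**
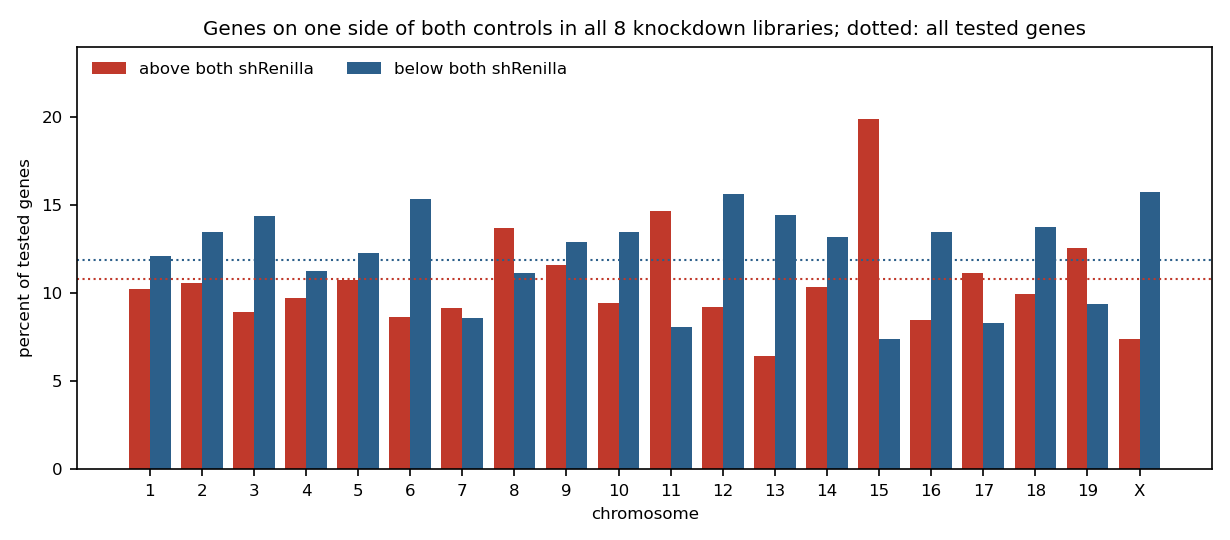
Percent of tested genes on each chromosome that lay above (left bar) or below (right bar) both shRenilla libraries in all 8 knockdown libraries. Dotted lines mark the shares over all tested genes, 10.8% and 11.9%. Chromosome 15 has 19.9% above.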

How the data were processed

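Total RNA of 10 libraries was sequenced, and the authors' table lists 23479 genes as log2 values. The authors worked with Bowtie2, HTSeq, DESeq and build mm10, per the submitters' processing notes. Versions, settings and strand of counting: not given in the sources used here. Overlapping genes therefore cannot be told apart. The values have a common floor of 6.733366499 and the form of a variance-stabilizing transformation, which no label states. They were inverted to normalized counts, and these fell on multiples of the value of 1 read (100% within 0.01 reads). A count of 0 allows up to 3 reads (2.30 to 3.48 normalized), counting error only. Amplified reads are not independent molecules. All 10 columns were matched to samples by title. Names of 27 entries had become dates and are not named.

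Tests used limma 3.58.1 in R 4.3.3 (eBayes with trend) on log2(normalized count + 1), which understates changes of weakly expressed genes, for the 12299 genes whose mean count reached 10. The fit had 5 group means, and the contrasts were the mean of 4 knockdown lines minus shRenilla, an F test among the lines, and Serpine2 minus Slpi lines. P-values are two-sided and Benjamini-Hochberg adjusted over all tested genes, with a threshold of 0.05. The fit was tested on simulated counts without differences among the 4 knockdown lines, so that run cannot show how the fit behaves where lines differ. Planned on the deposited values, the test was run on the inverted ones as the plan foresaw.

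Named were the targets, Krt14, Ace, Tslp and Dmp1, the 12 risers and 12 fallers with the largest change in their weakest line (called, same side, mean at least 50, proper name), the 5 and 5 with the widest spread over lines, the genes just inside and outside the rule, and up to 4 members of each of 26 lists by p. Some of the genes taken by this rule, and some list members, are not reported here. Other list members are named by membership alone. Members and lists were chosen with earlier results of these data known. Positions and promoters are RefSeq's on GRCm38.p6, the assembly of mm10. Transcript GC and length come from GENCODE M21. Alternatives covered pseudocounts, filters, scaling, voom, the spread used, left-out libraries and GC.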

Additional observations from a re-analysis of the deposited data

Results flagged for a closer look

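For 9 of the named genes the shared change differed in size between the targets, by the limma contrast of Serpine2 lines minus Slpi lines (log2, adjusted over all tested genes, with the spread within lines). With the spread taken over all libraries of a target none of the 9 passed, with limma adjusted p-values from 0.0553 (Fgfbp1) to 0.37 (Gbp9). The contrasts therefore describe these lines. Among genes that rose in all 4 lines, the mean of the Slpi lines was further from the control for Krt14 (-0.76, SE 0.08, adjusted p = 1.37e-05), Krt7 (-0.21, SE 0.04, adjusted p = 0.00181), Fgfbp1 (-0.32, SE 0.04, adjusted p = 2.90e-05) and Cgn (-0.28, SE 0.05, adjusted p = 0.00178). Among genes that fell, the mean of the Slpi lines was lower for Tslp (0.91, SE 0.07, adjusted p = 3.69e-07), Dmp1 (0.67, SE 0.14, adjusted p = 0.00422), Gbp9 (0.40, SE 0.12, adjusted p = 0.027), Man1c1 (0.77, SE 0.11, adjusted p = 2.92e-04) and Aox1 (0.43, SE 0.09, adjusted p = 0.00507). For some of these genes 1 line set the contrast or the lines of a target differed. Tslp had means of 614 and 1025 normalized reads in shSerpine2-1 and shSerpine2-2 and 615 and 293 in shSlpi-1 and shSlpi-2, so that a line of each target had nearly the same level. Krt7 had 3025, 3114 and 3228 in shSerpine2-1, shSerpine2-2 and shSlpi-1 and 3901 in shSlpi-2. Gbp9 had means of 98.9, 93.7 and 100.8 normalized reads in shSerpine2-1, shSerpine2-2 and shSlpi-1 and 52.6 in shSlpi-2, and Aox1 had 145, 145, 143 and 79.9.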

How the results depend on the processing

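The count of genes called against shRenilla (3824) was within 1.5 times of itself under other pseudocounts, filters, scalings, voom and GC centring (3131 to 3833), but was 400 with the spread over all knockdown libraries and 0 with line means as units. Leaving out 1 library gave 1596 (without shRenilla library B) to 4948 (without shSlpi-2 library A), and 2163 without shRenilla library A. The Serpine2 against Slpi count (2157) was 11 with the spread over all knockdown libraries and 0 with line means (419 with an unadjusted p under 0.05 in limma). Without both shSlpi-2 libraries it was 2116, with 922 of these genes also called in the main fit. It was 1088 without both shSerpine2-1 libraries, 3514 without both shSlpi-1 libraries, and 1106 (without shSerpine2-2 library A) to 3436 (without shSlpi-2 library A) with 1 library left out. Its split of 1270 higher and 887 lower in the Serpine2 lines turned to 860 and 1162 under upper quartile scaling. Same-side genes (2790) numbered 1063 with a margin of 0.1 on the log2 scale beyond both controls, and 2901 to 4603 with 1 library left out (4603 without shRenilla library A). The F test stayed within 1.5 times in each alternative run. Library letters did not pair the samples, with correlations of A minus B between groups from -0.07 to 0.07, and the replicate block gave 3783 calls. Alternatives centred by GC, and by GC and length (3655 called, 2756 on the same side), were added after seeing the data. Ube2v2, just outside the rule, turned from -0.18 to 0.0199 with GC and length centred. On the deposited log2 scale, which flattens weakly expressed genes, differences were smaller (Ace -0.83, Krt14 0.78) with the calls kept. Outside the fits with line means or the spread over lines, 14 of 112 named genes lost their call in at least 1 alternative, among them Edn1, Krt18 and Ptgs2. With the spread over lines 64 of the 112 lost it, and with line means all 112. Except where stated, the cause was not tested. Depth limits genes with few reads: 4.52% of higher and 8.47% of lower members had a mean under 50, against 14.3% of tested genes.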

Other observations

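From 70 Mb to its end, chromosome 15 held 77 of its 97 higher members (79.4%) and 331 of its 487 tested genes (68.0%). In windows of 10 Mb with at least 20 tested genes, of which there were 209 over the genome, the window from 80 to 90 Mb of chromosome 15 had the highest share of higher members, 29 of 98 genes (29.6%) with 1 below. Its median difference was 0.11, 0.20, 0.15 and 0.19 in shSerpine2-1, shSerpine2-2, shSlpi-1 and shSlpi-2, and 0.11 in the mean of the lines after GC centring, when 21 genes were above and 2 below. The neighbouring window from 70 to 80 Mb had 25 of 117 above and 1 below, while the window from 50 to 60 Mb had 6 and 5 of 39. Mcat lies between 80 and 90 Mb. The highest share of lower members was on chromosome 9 from 0 to 10 Mb, with 8 of 22 genes below (36.4%) and 0 above, or 6 below and 1 above after GC centring. Next were chromosome 3 from 60 to 70 Mb, with 9 of 26 below (34.6%), and chromosome 13 from 60 to 70 Mb, with 21 of 62 below (33.9%) and 2 above, or 12 below and 2 above after GC centring. The windows were drawn after the values by chromosome had been seen, and no test was made of them.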
